A study of Mus musculus with 12 samples.

Results

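Intergenic H3K4me3 regions are stretches of chromatin that carry H3K4me3, the histone mark of active or poised promoters, far from any protein-coding gene. They were found in blood progenitors of the mouse, in 4 H3K4me3 libraries of a study of Ints11, with 4 H3K27me3 libraries of the same mice as a second readout. The cells were lineage-negative, cKit-positive bone marrow cells, sorted from C57BL/6 mice 4 days after poly(I:C) was given. The knockout (KO) mice carried Mx1Cre and floxed Ints11 alleles (spelled flox/fox in the labels), and their WT littermates received poly(I:C) as well, so all groups share the interferon response to it. The labels do not say whether the WT mice carried Mx1Cre. Mx1Cre is switched on by interferon and acts in many cell types, so the deletion need not be limited to the sorted cells. Each genotype had 2 libraries per mark. They are called WT_407, WT_409, KO_399 and KO_401 here, after label numbers taken to be single mice, and any run of 4 values follows that order.

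Regions were chosen by the WT H3K4me3 lists themselves. Overlapping or touching peaks of both WT lists on chromosomes 1 to 19 were merged, which gave 27552 regions. Of these, 21142 were touched by both WT libraries and 19906 of those were under 4000 bp wide. The 3030 that lay more than 10000 bp from the span of every RefSeq protein-coding gene are the members described here. Presence and strength in WT are therefore given as a description only. The other short regions of both WT libraries were 10587 within 2000 bp of the end of a protein-coding gene (gene end), 4903 inside gene spans (gene body) and 1386 in the flanks of genes.

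H3K4me3 is laid down by SET1 and MLL methyltransferases where RNA polymerase II starts, and unmethylated CG-rich DNA attracts these enzymes. Far from protein-coding genes, the mark is known at promoters of long non-coding RNAs (lncRNAs), of microRNA precursors and of small RNA genes, and at lower levels at active enhancers. Ints11 is the RNA endonuclease of Integrator, the complex that cleaves the nascent ends of small nuclear RNAs (snRNAs) and of enhancer RNAs, and that ends transcription early at many promoters.

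Of the 3030 members, 244 held a listed RefSeq start of a lncRNA, and 301 listed starts of 250 such genes lay in them. The 300 bases around a start (250 before and 50 after, RefSeq, build GRCm38.p6, the coordinates of mm10) are shown for 4 strong members, chosen after their letters were seen, because they span the range of CG content. Each is printed 5′ to 3′ on the strand of the gene, with every CG dinucleotide in capitals.
Snhg20, chr11:117076533-117076832, plus strand: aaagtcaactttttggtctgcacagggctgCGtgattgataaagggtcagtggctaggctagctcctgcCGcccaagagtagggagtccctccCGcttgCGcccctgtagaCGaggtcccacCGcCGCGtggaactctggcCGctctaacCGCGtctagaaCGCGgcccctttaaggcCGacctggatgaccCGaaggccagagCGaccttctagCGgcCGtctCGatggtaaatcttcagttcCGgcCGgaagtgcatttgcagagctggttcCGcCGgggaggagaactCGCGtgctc
E130102H24Rik, chr4:101356199-101356498, minus strand: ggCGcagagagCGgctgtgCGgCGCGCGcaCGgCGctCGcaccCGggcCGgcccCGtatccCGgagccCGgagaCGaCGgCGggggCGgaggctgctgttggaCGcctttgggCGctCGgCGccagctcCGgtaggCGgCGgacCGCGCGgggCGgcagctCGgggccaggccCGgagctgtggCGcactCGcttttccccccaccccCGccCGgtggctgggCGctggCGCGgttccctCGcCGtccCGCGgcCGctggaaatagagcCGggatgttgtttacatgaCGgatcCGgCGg
Gm33971, chr16:64874297-64874596, minus strand: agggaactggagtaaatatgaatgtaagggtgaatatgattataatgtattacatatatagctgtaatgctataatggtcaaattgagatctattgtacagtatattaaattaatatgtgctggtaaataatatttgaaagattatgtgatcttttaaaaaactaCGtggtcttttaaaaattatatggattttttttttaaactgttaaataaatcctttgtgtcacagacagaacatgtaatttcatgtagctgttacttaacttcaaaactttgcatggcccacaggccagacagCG
C030034I22Rik, chr17:69416197-69416496, plus strand: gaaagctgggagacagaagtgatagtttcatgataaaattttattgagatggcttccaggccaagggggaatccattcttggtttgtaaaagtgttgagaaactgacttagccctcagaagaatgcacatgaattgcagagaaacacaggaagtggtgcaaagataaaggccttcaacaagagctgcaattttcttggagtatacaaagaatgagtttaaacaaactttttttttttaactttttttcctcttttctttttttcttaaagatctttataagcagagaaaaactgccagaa
The window of Snhg20, a host gene of small nucleolar RNAs, held 25 CG dinucleotides, and that of E130102H24Rik held 47. The window of Gm33971 held 2 and that of C030034I22Rik held 0. All 4 regions had H3K4me3 in all 4 libraries, with 1532, 1664, 1664 and 1618 covered bases at Snhg20, and 2359, 2334, 2397 and 2214 at C030034I22Rik. The strongest summits mostly lay outside the printed windows. They were at +1120, +1341, +1351 and +1159 bp from the start of C030034I22Rik, at +526, +528, +592 and +586 bp from that of Gm33971 and at +153, +154, +147 and +151 bp from that of Snhg20. At E130102H24Rik they were at -898, -769, -789 and +39 bp, so only KO_401 had its summit inside the window.

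Over the 301 starts in members, the median was 8 CG dinucleotides per 300 bases and 123 starts (40.9%) held 10 or more. The 5458 lncRNA starts that were also over 10 kb from protein-coding genes and had no H3K4me3 peak in any library had a median of 3, and 277 of them (5.08%) held 10 or more. Protein-coding starts had a median of 14. Within the members, the share of starts with 10 or more CG was 37.3% among the weakest in WT (percentile 0 to 25 of the list, as defined further on), 24.5% from 25 to 50, 53.3% from 50 to 75 and 66.7% (12 of 18) above 75. The letters GGGCGG, searched on both strands, were in 27.9% of starts in members, 6.96% of the unmarked far starts and 36.0% of all 31396 listed starts. CCGGAAG was in 9.30%, 2.18% and 9.004% in the same order, and TATAAA in 11.96%, 17.99% and 13.6%. AGATAA, which holds the GATA core, was in 14.95%, 16.7% and 11.2%. GGGCGG and CCGGAAG each hold a CG and so move with CG content. A match is a description of letters and not of binding.

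Several members lay just before clusters of microRNAs with known roles in blood. The mature sequences (RefSeq, seed bases 2 to 8 in capitals) are shown for a selection of those with a member over them or within 10000 bp upstream, chosen for their known roles and grouped by seed, because the seed sets the targets.
let-7a-5p: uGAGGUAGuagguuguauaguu
let-7f-5p: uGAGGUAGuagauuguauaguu
let-7d-5p: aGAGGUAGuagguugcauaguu
miR-17-5p: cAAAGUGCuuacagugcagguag
miR-20a-5p: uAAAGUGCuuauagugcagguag
miR-19a-3p: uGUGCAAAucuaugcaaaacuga
miR-19b-3p: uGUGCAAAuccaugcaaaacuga
miR-92a-3p: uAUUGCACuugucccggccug
miR-125b-5p: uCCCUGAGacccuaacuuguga
miR-101a-3p: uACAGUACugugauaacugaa
The let-7 family shares one seed, as do miR-17 with miR-20a and miR-19a with miR-19b. The region at chr13:48544254-48547403 lay 5994 bp upstream of let-7a-1, with 2748, 3150, 3150 and 2675 covered bases. It was among the 10 strongest members, at a percentile of 92.2 in the weaker WT list. The region at chr14:115040011-115043784 overlapped Mir17, the first gene of the miR-17 to miR-92 cluster, whose microRNAs promote growth of blood progenitors, and lay at or within 1000 bp of the host gene Mir17hg. This region had 3774, 3365, 3763 and 3344 bp. A region 1270 bp upstream of miR-125b-2, a microRNA known to act in stem cells, had 1504, 1194, 1419 and 1107 bp. The region of E130102H24Rik lay 7408 bp upstream of miR-101a-3p and had 3883, 3324, 3883 and 3873 bp. WT and KO lengths overlapped at each of these 4 regions.

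The labelled cell type was checked by H3K4me3 within 2000 bp of the ends of marker genes. Of the markers of lineage-negative, cKit-positive cells, Kit, Cd34, Flt3, Gata2, Meis1, Myb and Cd48 had the mark in all 4 libraries. Of the lineage markers, Cd3e, Cd8a, Ms4a1 and Klrb1c had it in none, while Cd4, Itgam and Ly6g had it in all 4. The H3K4me3 lists held 25090 to 27676 peaks, and the background recovered at the summits was 2.23, 1.94, 2.65 and 1.93 reads per position. Every deposited fold was above 5, so a region without a listed peak may have held a weaker one. Read totals are not given in the sources used here.

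The members were short and mostly weak. Their median width was 852.5 bp (interquartile range 585.5 to 1217, from 170 to 3968), against 1916 bp for short regions at gene ends. Strength was taken as the lower of the WT libraries' percentiles of deposited −log10 q, each within its own list. By this measure 1053 members lay from percentile 0 to 25, 1272 from 25 to 50, 661 from 50 to 75 and 44 above 75. The median pileup at the strongest summit was 36, 36, 51 and 35 reads. The median distance to a protein-coding gene was 32.3 kb, 511 members (16.9%) lay over 100 kb away and 19 over 1000 kb. Members made up 9.77% of the short regions on chromosome 7 and 23.5% on chromosome 13, the lowest and highest shares of the 19 chromosomes.

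At the edges of the rule, the 3 nearest members lay 10011, 10012 and 10021 bp from Shcbp1l, Ndel1 and Hsp90aa1, and the 3 nearest regions outside lay 9985, 9984 and 9963 bp from Zbtb42, Uqcrc1 and Rbms1. The 3 widest members were 3968, 3948 and 3929 bp wide and the 3 narrowest excluded by width 4000, 4039 and 4102 bp. Their percentiles in the weaker WT list were 35.9, 45.4 and 51.4 just inside the distance and 71.2, 12.03 and 1.71 just outside it.

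The first comparison asked which members were found again after Ints11 deletion. Most were: 2617 of 3030 (86.4%) had H3K4me3 in both KO libraries, beside 93.1% of all short regions of both WT libraries. A further 301 were in 1 KO library, 237 of them in KO_399 only and 64 in KO_401 only, and 112 (3.70%) were in neither, beside 1.53% of all short regions. Taken alone, KO_401 lacked 11.5% of the members and KO_399 lacked 5.81%. At gene ends 0.359% were in neither, in gene bodies 2.35% and in gene flanks 2.81%. Members had to be present in WT and not in KO, so these counts can show absence in KO only. The same rule applied to the KO lists gave 3177 regions, of which 2602 (81.9%) were in both WT libraries and 157 (4.94%) in neither. Over all short regions of both KO libraries, 611 of 20377 (2.998%) were in neither WT library. Absence from the other genotype was thus no less frequent by count for regions chosen on KO than for those chosen on WT, a difference that was not tested. In these bulk libraries, fewer cells with the mark and less mark per cell cannot be told apart.

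Absence from the KO libraries went with weakness in WT. Of the 1053 weakest members, 103 (9.78%) were in neither KO library, of the next 1272 only 8 (0.629%), of the next 661 only 1 (0.151%), and of the strongest 44 none. In the weakest group, 8.15% of gene flank regions, 5.78% of gene body regions and 3.65% of gene end regions were in neither. Members in the weakest group had a median pileup of 22 reads in WT_407 and 21 in WT_409.

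**Figure D1:**
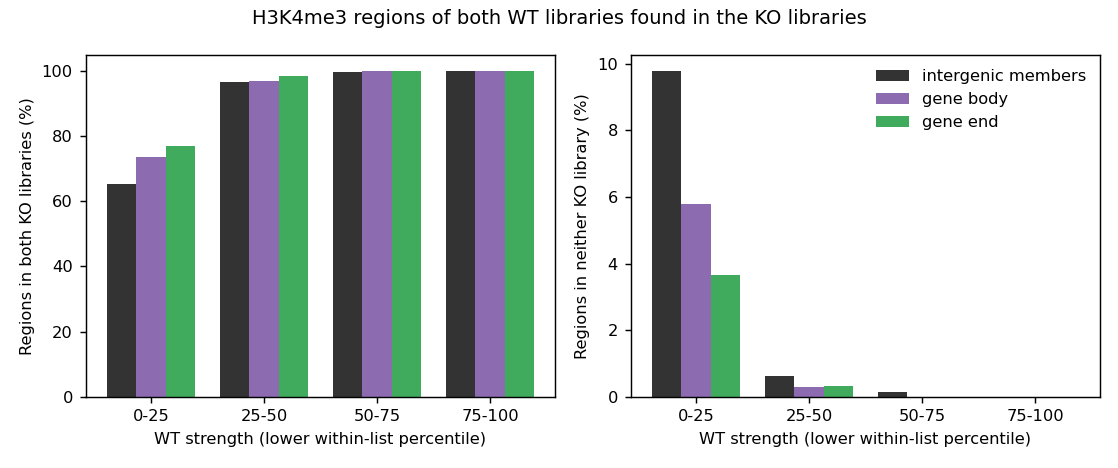
Share (%) of short H3K4me3 regions of both WT libraries that were in both KO libraries (left) or in neither (right), by WT strength (lower within-list percentile of −log10 q) for intergenic members, gene body and gene end regions. Of the intergenic members, 9.78% of the weakest and none of the 44 strongest were in neither KO library. Gene flank regions are not drawn.

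The length of the mark differed between libraries of the same genotype. The median covered length of a member was 737.5, 761, 758 and 648 bp, so KO_401 was the shortest and KO_399 lay within the WT range. KO_401 alone was the shortest library at 1412 members (46.6%), and WT_409 alone the longest at 1120 (37.0%). Over the members, 616 (20.3%) had fewer covered bases in each KO library than in either WT library (shorter), beside 11.8% of all short regions, and 116 (3.83%) had more (longer), beside 6.43%. Without KO_399 the shorter share was 55.2%, and without KO_401 it was 24.98%, with 18.1% longer. Since members were chosen on WT, the shorter count is favoured by the rule. When regions were merged from all 4 libraries, whatever library touched them, 486 of 5159 short intergenic regions (9.42%) were shorter in both KO libraries and 675 (13.1%) longer. Over all 27969 short regions made this way the shares were 6.17% and 17.3%.

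Counted per library with no choice on WT, short intergenic H3K4me3 did not separate the genotypes. There were 3768 and 4014 such intervals in WT_407 and WT_409, and 4296 and 3611 in KO_399 and KO_401. The KO libraries lay on either side of both WT libraries (WT 3891 ± 174, KO 3953.5 ± 484, mean ± SD of n = 2; p = 1 by exact permutation). Intergenic peaks covered 2.99, 3.24, 3.69 and 2.80 Mb in the same order (exact permutation p = 1, n = 2 each). Their share of all H3K4me3 covered bases was 8.31% and 8.62% in WT and 8.52% and 7.84% in KO, a difference of -0.28 percentage points (exact permutation p = 0.667, n = 2 each). With 2 mice per genotype the smallest two-sided p is 0.333.

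By what RefSeq lists inside them, the members fell into 6 groups. Most, 1840, overlapped no RefSeq gene, 633 lay in lncRNA genes away from a listed start and 244 held a lncRNA start. A further 206 overlapped pseudogenes, 86 small RNA genes and 21 other features, such as antigen receptor segments. The small RNA group takes in genes that RefSeq lists as misc_RNA, whatever their length. Over all groups, 21 members overlapped a misc_RNA gene. The lncRNA starts were wide (median 1315.5 bp) and strong (median percentile 47.3, against 32.2 for members without a RefSeq gene). Of the 244, 232 (95.1%) were in both KO libraries, against 86.4% of all members and 93.1% of all short regions, and 2 were in neither. Shorter in both KO libraries were 29 (11.9%), against 20.3% of all members and 11.8% of all short regions, and longer were 14 (5.74%), against 3.83% and 6.43%. The pseudogene members were the narrowest, with a median of 422 bp.

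**Figure D2:**
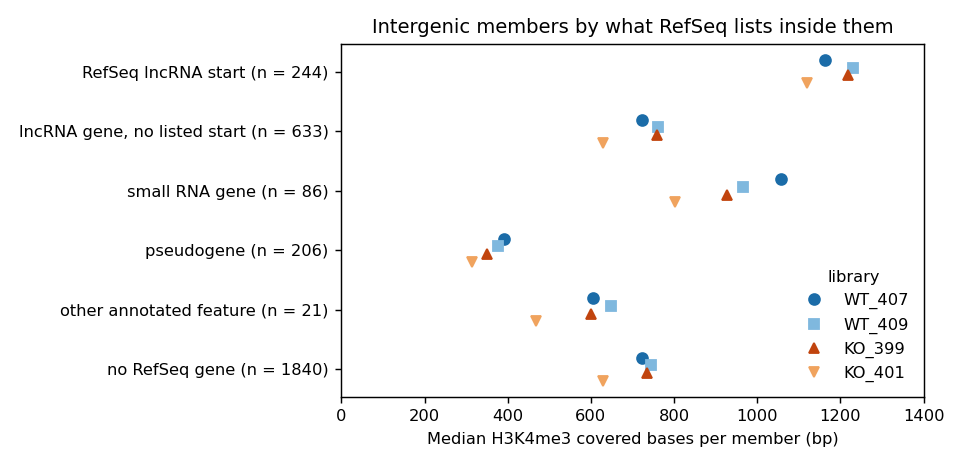
Median H3K4me3 covered bases (bp) per member in each library, for members grouped by the RefSeq features they overlap. KO_401 lies lowest in all 6 groups, and KO_399 lies below both WT libraries for small RNA genes (misc_RNA genes included), pseudogenes and other features.

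At the 204 members with a single listed lncRNA start, the strongest summit lay downstream of the start. The median position was +140, +144.5, +128.5 and +148 bp, and 72.1% to 74.8% of summits were downstream. Summits of the same member in different libraries were 35 to 43 bp apart in the median. The covered lengths of the 3030 members had a Spearman correlation of 0.853 to 0.909 between libraries, a description in which the libraries share the same regions.

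The 10 strongest members were unannotated, lncRNA or pseudogene regions with similar lengths in all 4 libraries. The strongest of all, at chr6:47771767-47773194 and 22.9 kb from Pdia4 (a protein disulfide isomerase), had 1372, 1418, 1428 and 1416 bp. It overlapped no RefSeq gene and was 1 of 7 members within 29.8 kb, whose median percentile was 88.1. The same stretch ended at Rny3, the gene of a Y RNA, a small RNA bound by the Ro protein, with 1753, 1827, 1827 and 1621 bp. At the strongest member the pileup was 288, 323, 297 and 309 reads, at folds of 38.3, 43.3, 16.9 and 35.4. Snhg20 had fewer reads (208, 220, 255 and 225) at higher folds (64.8, 75.1, 70.2 and 77.1), so its background was lower. In KO_399 the strongest member lay at percentile 69.3. The source of its higher background was not tested. A region at chr12:8640121-8641857, 32.2 kb from Pum2 (an RNA-binding repressor of translation), had 1545, 1737, 1692 and 1656 bp. One at chr7:73616610-73619825, 74.9 kb from Chd2 (a chromatin remodeler), had 3086, 2983, 2954 and 2936 bp, slightly shorter in both KO libraries. Snhg5, another small nucleolar RNA host, had 3454, 3294, 3623 and 3432 bp. Of the 10 strongest, 2 lay on chromosome 8 at the pseudogenes Gm20583 and Gm10060, with 1999, 1985, 1950 and 1933 bp and 2007, 1801, 1999 and 1641 bp. They too had more reads than Snhg20 at lower folds. The pileups were 292 to 312 and 297 to 322 reads, and the folds 31.2 to 42.8 and 21.4 to 33.6. The 5 farthest members lay 1427 to 1844 kb from a protein-coding gene (Celf4, Grik2, Slitrk5, G6pd2 and Pcdh20), and all 5 were in all 4 libraries. All but the one nearest to Grik2 overlapped a pseudogene (Gm7729, Tpm3-rs7, Cbfa2t2-ps1 and Gm5088). Those at Tpm3-rs7 and Cbfa2t2-ps1 were 259 and 253 bp wide. The placing of reads at these pseudogenes was not tested.

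Genes of snRNAs, the classical substrates of Integrator, were the class of small RNA genes with the most members shorter in KO. This group was singled out after the values were seen. Of 18 members that touched snRNA genes on 7 chromosomes, 12 were shorter by this measure and none was longer, beside 616 and 116 of all 3030 members. The 18 lay in 11 loci when members up to 50 kb apart were joined, so they are not 18 separate cases. The 5 between Eapp and Snx6, all shorter, belong to a single locus. The region at chr12:54733171-54735420 (LOC115488077, 10.9 kb from Snx6) had 2074, 2250, 1005 and 550 bp. Its 4 neighbours between Eapp and Snx6 were also shorter in both KO libraries. LOC115488065 had 1984, 1904, 1316 and 642 bp. Gm25679 had 1110, 1579, 823 and 614 bp, Gm26444 had 1124, 1603, 774 and 597 bp, and Gm22634 had 1082, 1048, 891 and 746 bp. At these 5 regions KO_401 was lowest and no KO library reached a WT library. On chromosome 1, Gm23472 had 1166, 1491, 933 and 863 bp and Gm24497 had 1234, 1358, 1094 and 955 bp.

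Of the 18 snRNA members, 2 had no peak in either KO library. Rnu1b1, a U1 snRNA gene at chr3:96359940-96360139, had 200, 172, 0 and 0 bp, and Gm22042 had 179, 228, 0 and 0 bp. Both were weak in WT, with a pileup of 16 to 24 reads. Not all snRNA members were shorter: Rnu5g, a U5 snRNA gene, had 826, 777, 703 and 858 bp, and Gm23296 had 2868, 2963, 2963 and 2916 bp, with both genotypes overlapping. The count did not rest on KO_401 alone, since 13 of the 18 were shorter in KO_399 than in both WT libraries, against 24.98% of all members, and 14 of 18 in KO_401, against 55.2%.

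**Figure D3:**
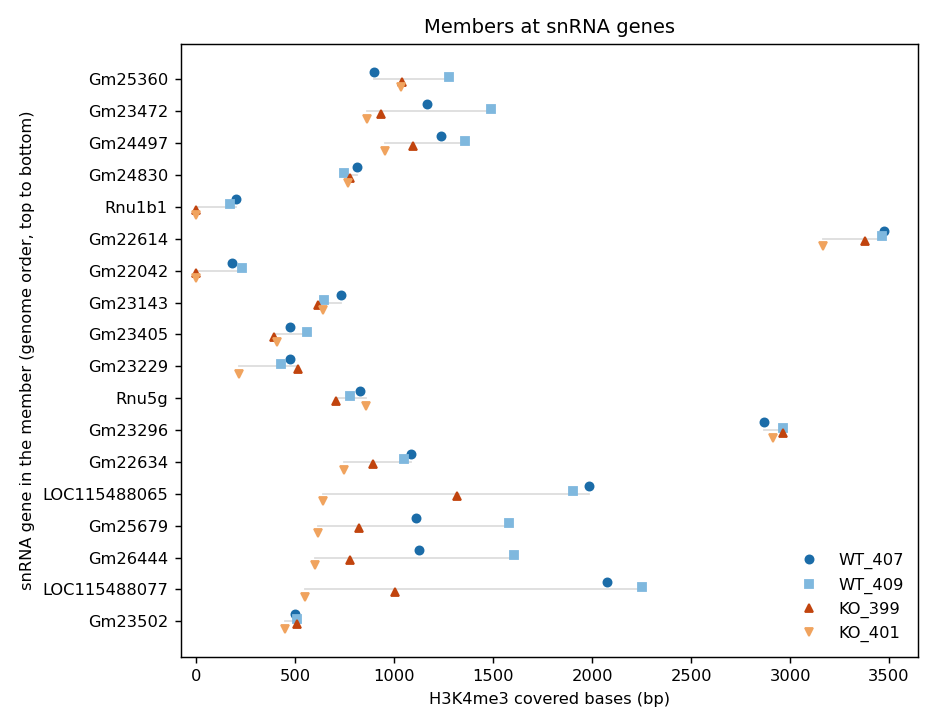
H3K4me3 covered bases (bp) in each of the 4 libraries at the 18 members that touch an snRNA gene, in genome order, with a grey line from the lowest to the highest library. The KO symbols lie left of both WT symbols at 12 of the 18 members, among them Rnu1b1 and Gm22042, which have no KO peak.

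The same pattern was seen with regions that were not chosen on WT. Merged from all 4 libraries, 19 short intergenic regions touched snRNA genes, and 11 were shorter in both KO libraries and none longer, beside 9.42% and 13.1% of all intergenic ones. Including snRNA genes in or near protein-coding genes, 30 of 57 regions were shorter and 2 longer, with 77.3, 84.1, 72.6 and 63.0 kb covered. These 57 include the 18 members' loci, so they are not a second sample. Regions at tRNA genes, transcribed by RNA polymerase III, are given beside these. Of 129 such regions 7 (5.43%) were shorter and 17 (13.2%) longer, with 241.9, 246.3, 266.7 and 232.1 kb. Over all 27969 short regions merged this way, 6.17% were shorter and 17.3% longer. The difference between snRNA and tRNA regions was not tested. Several snRNA genes are near-identical copies, between which reads cannot be placed with certainty, and the part of this in the lengths was not tested.

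The tRNA members were strong and were found in every library. There were 32, holding 59 tRNA genes, and 11 of the 32 lay on chromosome 13. All 32 were in both KO libraries (86.4% of all members were), 4 were shorter in both (20.3% of all members) and 1 was longer (3.83%). Of the 32, 27 lay above the percentile of 50, and 99.7% of all members from 50 to 75 were in both KO libraries. Presence of the tRNA members in KO is thus near that of other members of like strength. Their summed length was 59728, 63986, 63306 and 58273 bp. The widest overlap with H3K27me3 was at a cluster of 4 tRNA genes at chr1:171078793-171081459 near Fcgr3, where both marks covered nearly the whole region. Terc, the RNA template of telomerase, had 1181, 989, 995 and 976 bp. The 5S rRNA genes form an array on chromosome 8, where 16 members lay from chr8:123549024 to chr8:123619149, and 11 of them overlapped a listed 5S gene, all weak. KO_401 lacked 6 of the 11, whereas KO_399 had all of them, with summed lengths of 7767, 5548, 7570 and 2612 bp. The WT and KO libraries overlapped there. H3K27me3 covered each of these 11 in full in all 4 libraries. The array is made of repeated copies, with the same limit on placing reads.

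Members absent from both KO libraries were spread thinly over the genome except in a single stretch of chromosome 12. Of 461 windows of 5 Mb that held a member, 93 held one that was in neither KO library, 81 of them just 1 and 11 of them 2. The exception was chr12 from 20 to 25 Mb, with 9 of 19. From 15 to 25 Mb there were 26 members, of which 11 were in neither KO library, 7 in 1 and 8 in both, and 16 were shorter in both KO libraries. KO_401 alone lacked 69.2% of the 26. They had 21.1, 20.1, 12.035 and 8.53 kb of H3K4me3. Among them chr12:23188392-23190030 had 1324 and 1639 bp in WT and none in KO, with H3K27me3 also in WT only (1541 and 1520 bp). A region at the pseudogene Gm9282 had 1312 and 1649 bp in WT and none in KO. Others in the same stretch were as long in KO, such as 3110053B16Rik with 1598, 597, 1598 and 1598 bp. By the same rule on the KO lists, 15 regions lay here and 3 were in neither WT library. Elsewhere, 101 of 3004 members (3.36%) were in neither KO library. The window was chosen after the values were seen, 15 of its 26 members overlap an annotated feature, and it holds families of similar predicted genes.

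Farther along chromosome 12, members at V segments of the immunoglobulin heavy chain locus, which B cells rearrange, were mostly longest in WT_409. There were 11 from chr12:114931618 to chr12:115921534, and WT_409 was the longest library at 10 of them. Over all 3030 members, WT_409 alone was the longest at 1120 (37.0%). Their summed lengths were 8553, 16399, 11729 and 10459 bp. The region at Ighv1-69 had 1008, 3569, 1383 and 1671 bp. The share of B cells in each library was not tested. At V segments of the T cell receptor alpha locus, 4 members had 2240, 2021, 2344 and 1826 bp.

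**Figure D4:**
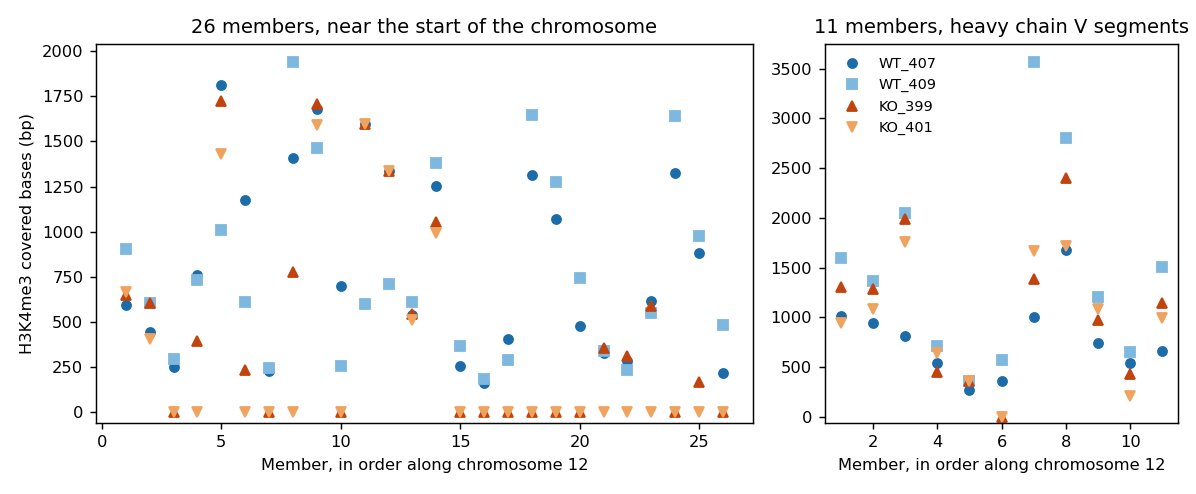
H3K4me3 covered bases (bp) per member and library for 26 members from 15 to 25 Mb of chromosome 12 (left) and 11 members at immunoglobulin heavy chain V segments (right), in order along the chromosome. On the left, 11 members have both KO symbols at 0. On the right, WT_409 is highest at 10 of 11, beside 37.0% of all members.

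Other members differed in length between genotypes without lying at small RNA genes. Among members in all 4 libraries, the largest ratios of the smaller KO to the larger WT length were at regions near Ly75 (560, 684, 877 and 854 bp), Ccdc88b (1128, 1226, 1376 and 1397 bp), B4galt5 (345, 358, 405 and 400 bp), Flrt2 (526, 384, 578 and 584 bp) and Jun (701, 811, 890 and 890 bp). In each of the 5 the KO libraries lay above both WT libraries. Bases were counted within the region merged from WT, so a KO length could not exceed its width. At Jun both KO libraries filled the width of 890 bp. Their strongest summits, at -931 and -928 bp from the Junos start, lay outside the region. The pileups of the strongest peaks touching it were 33, 38, 125 and 111 reads. Ly75 encodes an endocytic receptor of dendritic cells and Jun a subunit of AP-1, and the Jun region overlaps its antisense gene Junos. The smallest ratios of the larger KO to the smaller WT length, besides LOC115488077, were near Map3k20 (1571, 1548, 446 and 788 bp), Cox7c (611, 514, 302 and 246 bp), Haus1 (1394, 1355, 826 and 732 bp) and Zfp365 (804, 977, 298 and 521 bp). These were selected for their difference, which is given as a description.

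Near regulators of stem and progenitor cells, members were mostly found in both genotypes. Of 35 listed genes, 13 were the nearest gene of a member within 100 kb, with 23 members in all. Of these, 21 were in both KO libraries (86.4% of all members were), 5 were shorter in both (20.3% of all members) and 3 longer (3.83% of all members). Of the 23, 3 lay 17.3 to 38.8 kb from Cxcr4, the chemokine receptor that holds stem cells in the marrow. One of these, 26.2 kb away, had 949, 1162, 827 and 793 bp, and one 17.3 kb away had 757, 1153, 1096 and 1039 bp. Another 3 lay 25.9 to 39.6 kb from Myb, a factor that progenitors need, the strongest with 732, 883, 883 and 853 bp. A region 14.7 kb from Cd34 had 1799, 1795, 1805 and 1805 bp. The Myc member lies at Pvt1, the lncRNA next to Myc, with 1363, 1321, 1413 and 1351 bp. The one without a KO peak lay 11.9 kb from Nfe2l2, the oxidative stress factor NRF2, with 329 and 338 bp in WT.

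Granulocyte and monocyte genes had 11 members at 6 of 22 genes, all in both KO libraries (86.4% of all members were). Among the 11 were 2 near Cebpb (623, 1259, 1259 and 1203 bp, and 1672, 1279, 1672 and 1595 bp). B lymphoid genes had 3 members (Foxo1 and Bach2), T and NK genes 4 (Klrb1c and Eomes) and stromal and endothelial genes 5 (Kdr, Kitl, Runx2 and Sox17). Erythroid and megakaryocyte genes had none at 20 genes on these chromosomes. Of the 3 members 13.5 to 23.8 kb from Klrb1c, 2 lay above the percentile of 50 (1455, 1494, 1501 and 1493 bp for the strongest), although the ends of Klrb1c itself had no H3K4me3 peak. Of the listed non-coding genes, 6 had 10 members, 5 of them in Lncpint, a lncRNA induced by p53.

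About equal numbers of members stood alone and in groups. With gaps of up to 50 kb, 1517 were single and 1513 (49.9%) lay in larger groups, 43 of which held 5 or more. The largest held 19 members in 166 kb between Zfp217, a transcriptional repressor, and Bcas1. It had 20024, 22878, 20640 and 19100 bp of H3K4me3, with no H3K27me3. Of the 19, 18 were in both KO libraries (86.4% of all members were). A group of 13 near Ly86 and Rreb1 had 14880, 13680, 15190 and 14136 bp, and 10 near Rap1b had 8895, 9011, 8822 and 6892 bp. By nearest gene, Jarid2 (a Polycomb partner) had 12 members, and Jun, Dusp6 and Cited2 had 8 each. By distance, 88.6% of members 10 to 20 kb from a gene and 85.3% from 20 to 50 kb were in both KO libraries. From 50 to 100 kb the share was 88.2% and beyond 100 kb 82.4%, so it did not fall steadily. The median percentile was 36.5, 34.4, 33.4 and 29.5 in the same order.

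The second readout was H3K27me3, the mark of Polycomb silencing, which the rule did not use. It was uncommon in members: 225 (7.43%) had it in both WT libraries, beside 15.5% of all short regions, and 127 (4.19%) in all 4, beside 11.3%. At gene ends 16.3% had it in all 4, in gene bodies 6.69% and in gene flanks 5.19%. The shares with it in both WT libraries were 21.5%, 9.50% and 8.51% in the same order. Members were thus nearer to gene bodies and flanks than to gene ends. It was in all 4 libraries at 21 of the 86 small RNA members (24.4%), 13 of the 244 lncRNA starts (5.33%) and 62 of the 1840 without a RefSeq gene (3.37%), and in any library at 34, 32 and 151. Of the 21 small RNA members, 11 belong to the 5S array, a single locus. In 37 members it was in both WT libraries and neither KO library, and in 0 the reverse. No matching counts over all short regions are given, so these counts do not set members apart from other regions. The number of members with H3K27me3 was 246 and 279 in WT_407 and WT_409, and 135 and 195 in KO_399 and KO_401 (exact permutation p = 0.333, the smallest possible, n = 2 each). The covered bases were 213.8 and 257.4 kb in WT and 120.5 and 180.4 kb in KO, or 235.6 ± 30.8 and 150.5 ± 42.3 kb (mean ± SD of n = 2; p = 0.333 by exact permutation). The genotypes did not overlap in either measure. The H3K27me3 lists as a whole were also smaller in KO, with 11930, 9838, 6542 and 7653 peaks over 34.5, 31.5, 15.2 and 23.1 Mb. As a share of all H3K27me3 covered bases, members held 0.626% and 0.826% in WT and 0.797% and 0.786% in KO, which overlap (exact permutation p = 1, n = 2 each).

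**Figure D5:**
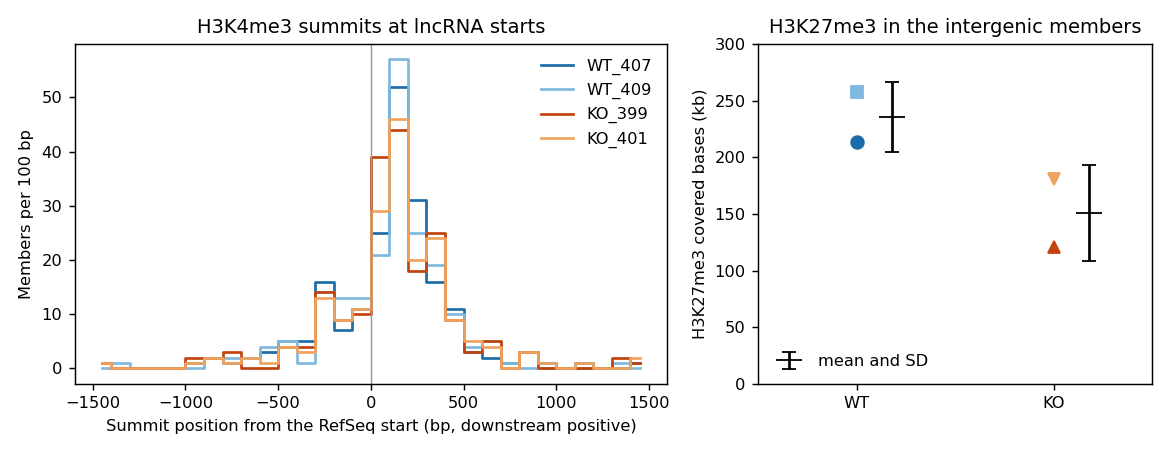
Left, number of members per 100 bp by the position of the strongest H3K4me3 summit from a lncRNA start (bp), for each library. Right, H3K27me3 covered bases (kb) in the 3030 members by library with mean and SD (n = 2), where both KO libraries lie below both WT libraries and most summits lie downstream of the start.

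Of the 127 members with H3K27me3 in all 4 libraries, 78 were fully covered in each, 16 had fewer H3K27me3 bases in both KO libraries and 0 had more. No matching counts over all short regions are given, and the H3K27me3 lists as a whole were smaller in KO. H3K4me3 was in both KO libraries at 107 of the 127 (86.4% of all members were), near the share of all members. The one with the most H3K27me3 over the 4 libraries was at chr10:7390475-7393594, at Gm21321 and 51.3 kb from Ulbp1, with 3120 bp of H3K27me3 in all 4 libraries and 2698, 3120, 3025 and 2644 bp of H3K4me3. A Lncpint region at chr6:31215830-31219085 had 3256, 3256, 1704 and 3256 bp of H3K27me3. A region near Skida1, at the lncRNA Gm17762, had 2715, 3210, 2567 and 2967 bp, and one near Slc38a10 had 2720, 3091, 2229 and 2381 bp. In these 2 regions KO_399 had the least H3K27me3 and the H3K4me3 lengths overlapped between genotypes. Both marks in bulk cells may come from the same or from different cells, which was not tested. A region within 1000 bp of Mir124a-1hg, the host gene of a neuronal microRNA, carried both marks in all 4 libraries, with 1084, 604, 953 and 670 bp of H3K4me3.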

How the data were processed

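H3K4me3 and H3K27me3 ChIP-seq peak lists of 2 WT and 2 KO mice were used, 4 libraries per mark, from chromatin fixed with 1% formaldehyde and sheared to 100 to 300 bp and from reads of 75 bp, per the labels' protocols. The 4 input libraries were not analysed here. The build mm10 and the tools Bowtie2, MACS2, SAMtools, deepTools, Trim Galore and FastQC appear in the submitters' processing notes, without versions. There was 1 deposited list per library. For each peak the authors deposited a score, a fold enrichment ratio, −log10 p and −log10 q values and a summit offset. Every deposited fold was above 5, a filter that no label records. No source used here says whether input served as the control.

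Covered bases are the bases of a region under a library's peaks, and 1 bp counted as presence. A peak that reached beyond a region was counted only up to its edge. Gene spans, starts and sequences came from the RefSeq table of GRCm38.p6, with 20665 protein-coding and 26377 other genes on chromosomes 1 to 19. The deposited fold and −log10 p were solved for pileup and background at the summits, to within 0.001. The steps used Python 3.11.15, numpy 2.4.6, pandas 2.3.3, scipy 1.17.1 and matplotlib 3.10.9 and were tested on simulated data. Single values per library were tested by exact permutation, two-sided, over the 6 labelings of 2 against 2. Each p is the share of labelings with a difference in means at least as large in size as the observed one. It holds for these samples only. Alternatives were other thresholds on fold, q, distance and peak number, and leaving out each mouse.

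Members, gene lists, roles and tests were chosen with earlier results of these data known. Named were the 10 strongest members, the 5 farthest, the 5 strongest in neither KO library, the 5 with the largest gain and the 5 with the largest loss of length, the 5 with the most H3K27me3, members within 100 kb of listed genes, the 10 strongest at or within 1000 bp of non-coding genes and the 3 at each side of an edge. The snRNA, tRNA, 5S rRNA, microRNA, chromosome 12 and V segment members, the groups of neighbours and the printed sequences were chosen after their values were seen. A few marker and nearest genes are not reported here.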

Additional observations from a re-analysis of the deposited data

How the results depend on the processing

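No paired analysis was possible because the labels' numbers of the WT mice and the KO mice do not overlap. The number of members was 1144 when 10000 bp from every gene was required, 1391 at a fold of at least 10, 5159 when regions were merged from all 4 libraries (chosen after seeing the data), and 3030 to 4014 leaving out 1 mouse. The share in both KO libraries was 88.5% at a fold of at least 10, 87.9% at −log10 q of at least 10 and 73.2% to 94.2% leaving out 1 mouse. The share in neither was 2.52%, 2.38% and 5.81% to 11.5%, and of KO regions in neither WT library 3.78%, 4.17% and 8.03% to 13.5%, or 4.05% with the same number of peaks per list. Fewer libraries have to lack a region when a mouse is left out. Longer in both KO were 13.1% with all 4 libraries merged and 0% to 18.1% leaving out 1 mouse, 0 without a WT mouse, when each member is the other mouse's own peak. Shorter were 17.8% at a fold of at least 10, 9.42% with all 4 merged and 24.98% to 61.2% leaving out 1 mouse. H3K27me3 in both WT libraries was in 4.46% away from every gene, 3.52% at a fold of at least 10, 6.00% with the same number of peaks and 6.47% of members that touch no RefSeq gene other than lncRNA (chosen after seeing the data). The KO minus WT difference in short intergenic intervals turned to -105.5 with the same number of peaks, -60.5 without WT_407 and -280 without KO_399 (range -280 to 405). The difference in the intergenic share turned to 0.0606 percentage points without KO_401 (from -0.622). The share of chromosome 12 members in neither KO library was 39.3% to 69.2%, the latter without KO_399. Of the snRNA members, 72.2% to 78.9% were shorter leaving out 1 mouse. H3K27me3 in members differed by -115 to -55.2 kb (KO minus WT) leaving out 1 mouse. The cause of these shifts was not tested, apart from those stated. With 2 mice per genotype no permutation p can go below 0.333, and weak regions near the fold filter limit what absence shows.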

Other observations

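Outside the members, 1559 intergenic regions of any width were touched by 1 WT library only. Of these, 641 were in WT_407 only, with a median percentile of 10.2 in that list, and 165 of them were in both KO libraries and 230 in neither. The other 918 were in WT_409 only, with a median percentile of 13.4, and 277 were in both KO libraries and 342 in neither.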
